A study of Mus musculus with 6 samples.

Results

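Genes that mark intestinal stem cells or respond to Wnt signalling were followed on arrays of intestinal epithelial cells from mice with and without an inducible deletion of Pggt1b, the gene for the beta chain of GGTase-I. This enzyme adds a geranylgeranyl lipid to proteins, which helps them attach to membranes. The 43 genes were listed by symbol and not by a threshold on their values: stem cell markers, Wnt receptors, feedback inhibitors, transcription factors, growth and adhesion targets, reserve stem cell genes and Notch pathway genes. Each was read from 1 probe set, the one with the highest mean over the 6 arrays. Of the 43 genes, 41 matched a probe set under a single symbol, out of 18193 genes in all, and 30 lay above 5 (log2) on at least 3 arrays and were tested, out of 8893. Tcf7 and Ephb2 matched no probe set under a single symbol and were not analysed here.

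The 3 control mice carried floxed Pggt1b (written Pggt-Ibeta floxed in the labels) and lacked the VillincreERT2 transgene. The 3 deficient mice carried floxed Pggt1b and the transgene, a tamoxifen-inducible recombinase under the Villin promoter, which is active in epithelial cells of the gut. All 6 mice were of a mixed 129/SV and C57BL/6 background and received tamoxifen (1 mg, over 3 days, as the labels word it). Cells were taken on day 6, counted from the first dose. Each mouse gave 1 array of total RNA. The labels used here name neither age nor sex nor the stretch of intestine sampled. The recombinase was present in the deficient mice alone, so an effect of the recombinase itself and an effect of the deletion cannot be told apart.

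The intestinal epithelium is renewed from stem cells at the base of the crypts. Wnt ligands bind Frizzled receptors with the co-receptors Lrp5 and Lrp6, which stops the Apc and Axin complex from degrading beta-catenin, and beta-catenin then acts with TCF and LEF factors on target genes. Many of those targets are themselves parts of the pathway: Axin2, Rnf43, Znrf3, Nkd1 and Notum restrain it, while Lgr4 and Lgr5 bind R-spondins and raise the sensitivity of the cell to Wnt. Notch signals between neighbouring crypt cells keep cells out of the secretory lineages and help maintain the stem cells.

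On the 6 arrays, between 35.6% and 36.5% of probe sets exceeded the filter level. The enterocyte markers fitted the labelled tissue, with all 18 of those on the array tested and a mean level between 12.7 and 13.7 (log2) over the arrays. Pggt1b itself read 9.30, 9.55 and 9.33 in control replicates 1 to 3 and 9.75, 8.88 and 8.83 in deficient replicates 1 to 3. Deficient replicates 2 and 3 lay below all controls, but the array labelled deficient replicate 1 held the highest value of the 6, which goes against its label (control mean 9.39 ± 0.14, deficient mean 9.16 ± 0.52, SD, n = 3 each; limma adjusted p = 0.678). No label used here places the probe set relative to the deleted part, so every direction below rests on the labels, and several genes that turn on the array labelled deficient replicate 1 are also given without it. Markers of other cells differed with the group. Of the T cell and intraepithelial lymphocyte markers, 13 of 13 tested were lower by mean in deficient arrays, 11 of them past the threshold. The mean level of the 13 was 9.58 to 9.73 in controls and 5.61 to 7.09 in deficient arrays, lowest in deficient replicate 1. Myeloid markers were lower by mean for 8 of 8 tested, 4 of them past the threshold, with a median log2 change of -1.53 and a mean level of 8.33 to 9.10 in controls and 6.88 to 7.53 in deficient arrays. Some markers past the threshold were above the filter level in controls only. Every deficient value of Cd3d, Cd7 and Itgax lay under 5 (log2), so these were tested through their control arrays alone. Nkg7 exceeded 5 on 1 deficient array. In bulk samples, fewer cells of a type and less RNA per cell cannot be told apart. Over all genes, 186 of 8893 passed limma's test with Benjamini-Hochberg adjustment at 0.05, and 93, 104 and 101 passed without control replicate 1, control replicate 3 and deficient replicate 2.

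None of the stem cell and Wnt target genes passed that test. The count was 0 of 30 tested, where 2.09% of all tested genes passed (0.112% higher and 1.98% lower). At an unadjusted p under 0.05 there were 8 of 30 (26.7%), against 16.9% of all genes. Of these 8, 5 were higher in deficient arrays (Bmi1, Sox9, Apc, Tcf7l2 and Sox4) and 3 were lower (Rnf43, Notch1 and Sp5). Of all genes, 5.6% were higher and 11.3% lower at an unadjusted p under 0.05. The deficient and control arrays did not overlap for 10 of 30 (33.3%), against 25.7% of all tested genes. In 6 of the 10 the deficient arrays lay above all controls (9% of all genes did) and in 4 below (16.7% of all genes). The median log2 change, deficient minus control, was 0.25 over the 30 tested and 0.14 over the 41 on the array, beside -0.04 over all genes tested. Leaving out control replicate 2, which stood apart for many of these genes, took the median of the 30 to 0.05 and that of all genes to -0.07, and the number that passed stayed 0 of 30, beside 1.44% of all genes. At an unadjusted p under 0.05 there were then 5 of 30, beside 12.7% of all genes, and 15 of 30 had groups that did not overlap, beside 34.3%.

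**Figure D1:**
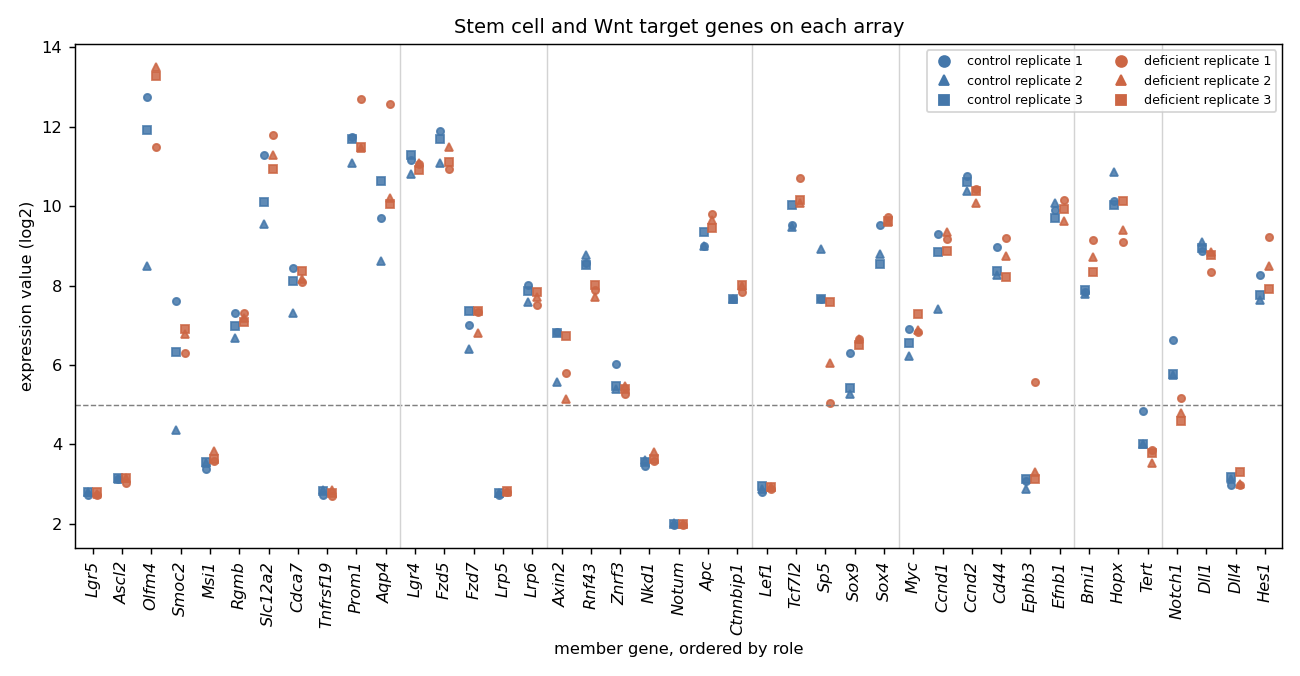
Expression values (log2, vertical axis) of the 41 genes on the array, ordered by role, with 1 point per mouse (blue: control, red: deficient; circle, triangle and square: replicates 1, 2 and 3; dashed line: the filter level of 5). The groups overlap for most genes, 11 genes were not tested because they exceeded that level on fewer than 3 arrays, and the blue triangle of control replicate 2 is the lowest point for 16 of the 30 tested genes.

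The 2 genes most often used to define crypt stem cells were not measured above the low end of the scale. Lgr5, the R-spondin receptor, read 2.73, 2.80 and 2.80 in control replicates 1 to 3 and 2.73, 2.75 and 2.80 in deficient replicates 1 to 3. Ascl2, a transcription factor that maintains stem cell identity, read 3.14, 3.14 and 3.15 in controls and 3.04, 3.15 and 3.15 in deficient arrays. Neither has a probe set above 5 on any array, so whether they differ between the groups could not be judged. The same held for the RNA-binding protein Msi1 and the receptor Tnfrsf19, between 2.70 and 3.84 on all arrays.

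Each of the 7 tested stem cell markers had a higher deficient than control mean, as 45.4% of all tested genes did. Log2 changes ran from 0.20 to 1.70, and 0 passed. Control replicate 2 was the lowest array for each of the 7, and their median of 0.57 fell to 0.18 without it. Olfm4, a secreted glycoprotein of crypt base cells, read 12.75, 8.50 and 11.91 in controls and 11.48, 13.50 and 13.28 in deficient arrays. Control replicate 2 was far below every other array, and deficient replicate 1 lay below control replicates 1 and 3, so the groups overlapped. This gave a log2 change of 1.70 with a 95% interval from -0.93 to 4.33 (limma adjusted p = 0.457), and 0.42 without control replicate 2. Smoc2, a secreted matricellular protein, read 7.62, 4.35 and 6.33 in controls and 6.29, 6.79 and 6.92 in deficient arrays. Its deficient values lay within the control range, and its log2 change of 0.57 (95% interval -1.21 to 2.34, limma adjusted p = 0.717) became -0.31 without control replicate 2.

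Slc12a2, the basolateral sodium, potassium and chloride carrier of crypt cells, read 11.30, 9.54 and 10.09 in controls and 11.78, 11.28 and 10.93 in deficient arrays. Control replicate 1 lay among the deficient arrays while both other controls lay below all of them. Its log2 change was 1.02 (95% interval -0.06 to 2.11, limma adjusted p = 0.316), and its other probe sets gave 1.23 and 1.09. Without control replicate 2 the change was 0.64. Aqp4, a water channel, read 9.69, 8.62 and 10.64 in controls against 12.57, 10.20 and 10.04 in deficient arrays, so that deficient replicate 1 alone stood above the controls. Its log2 change was 1.28 (95% interval -0.56 to 3.12) and 0.46 without deficient replicate 1 or 0.77 without control replicate 2. A second Aqp4 probe set gave 2.12 with overlapping groups, and 0.84 without control replicate 2. Prom1, the surface protein CD133, was likewise high in deficient replicate 1, at 12.71 against 11.09 to 11.74 in controls, and its log2 change of 0.38 became -0.03 without that array. Rgmb, a BMP co-receptor, and Cdca7, a Myc-responsive cell cycle gene, had changes of 0.20 and 0.25, or 0.04 and -0.08 without control replicate 2.

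Wnt receptors showed little separation. Lgr4, the R-spondin receptor of the wider epithelium, read 11.17, 10.79 and 11.29 in controls and 11.05, 11.08 and 10.92 in deficient arrays, a log2 change of -0.07 with a 95% interval from -0.50 to 0.37. The interval leaves room for a change of either sign. The Frizzled receptor Fzd5 read 11.89, 11.10 and 11.70 in controls and 10.95, 11.50 and 11.11 in deficient arrays (log2 change -0.37, 95% interval -0.99 to 0.24). A second Fzd5 probe set gave -0.86 with deficient arrays below all controls. For the probe set used, the change was -0.61 without control replicate 2, when the deficient arrays lay below both remaining controls, but -0.21 without control replicate 1 and -0.25 without deficient replicate 1. Fzd7 had a change of 0.25 (-0.02 without control replicate 2) and the co-receptor Lrp6 -0.13 (-0.25 to -0.035 when any 1 array was left out), while Lrp5 read between 2.74 and 2.82 on all arrays and was not tested.

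Among the feedback inhibitors, Rnf43 had the smallest p of the 30 tested genes. Rnf43 is a membrane ubiquitin ligase that removes Frizzled receptors from the cell surface. It read 8.56, 8.76 and 8.53 in controls and 7.89, 7.72 and 8.02 in deficient arrays, so each deficient array lay below each control. The log2 change was -0.74 ± 0.17 (SE), with a 95% interval from -1.13 to -0.35 and a limma adjusted p of 0.096, and it ran from -0.81 to -0.66 when any 1 array was left out. Over all alternative settings its limma adjusted p ran from 0.0565 to 0.308. Its homologue Znrf3 read 6.02, 5.40 and 5.47 in controls and 5.27, 5.48 and 5.41 in deficient arrays. Only control replicate 1 stood apart, and the log2 change of -0.25 (95% interval -0.74 to 0.25) became -0.05 without it.

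Axin2, a scaffold of the beta-catenin degradation complex and a common readout of Wnt activity, read 6.83, 5.57 and 6.81 in controls and 5.79, 5.14 and 6.73 in deficient arrays. Control replicate 2 lay below 2 deficient arrays, so the groups overlapped. The log2 change was -0.51 (95% interval -1.68 to 0.66, limma adjusted p = 0.615), and -0.93 without control replicate 2, when all 3 deficient arrays lay below both remaining controls. It was also -0.93 without deficient replicate 3, but -0.14 without deficient replicate 2, -0.30 without control replicate 1 and -0.31 without control replicate 3. Apc, a further part of that complex, read 9.01, 9.01 and 9.36 in controls and 9.80, 9.65 and 9.46 in deficient arrays, with no overlap (log2 change 0.52, 95% interval 0.08 to 0.95, limma adjusted p = 0.237). Its other probe sets above the filter gave 0.34 and -0.00 with overlapping groups. For Ctnnbip1, which blocks the binding of beta-catenin to TCF factors, 2 probe sets separated the groups in opposite directions, at 0.28 and -0.56, so no direction is given. Nkd1, an inhibitor of Dishevelled, read between 3.45 and 3.81 and Notum, a secreted enzyme that inactivates Wnt ligands, between 1.97 and 2.01, and neither was tested.

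Of the genes listed here as transcription factors, all 4 tested had groups that did not overlap, with 1 lower and 3 higher. Over all tested genes, 25.7% did not overlap (16.7% lower and 9% higher). Myc, Hes1 and Hopx, transcription factors listed under other roles, had groups that overlapped. Sp5, a zinc finger factor and direct Wnt target, read 7.66, 8.91 and 7.67 in controls and 5.04, 6.06 and 7.60 in deficient arrays. Deficient replicate 3 lay just under the controls while deficient replicates 1 and 2 were well below. The log2 change was -1.85 ± 0.66 (SE; 95% interval -3.41 to -0.28, limma adjusted p = 0.241), and it was -2.53 without deficient replicate 3 and -1.25 without deficient replicate 1.

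Sox9, which marks crypt progenitors and Paneth cells, read 6.31, 5.27 and 5.43 in controls and 6.67, 6.66 and 6.51 in deficient arrays. The deficient values were close together and control replicate 1 came nearest to them. The log2 change was 0.94 ± 0.29 (SE; 95% interval 0.27 to 1.62, limma adjusted p = 0.189). Without control replicate 1 it was 1.26 and passed (limma adjusted p = 0.0446, with a range of 0.0446 to 0.416 over all alternative settings), the single instance in which one of the 30 genes passed under an alternative. A second Sox9 probe set gave 0.41 with overlapping groups. Sox4, a factor of progenitor cells, read 9.52, 8.80 and 8.54 in controls and 9.73, 9.59 and 9.62 in deficient arrays (log2 change 0.69, 95% interval 0.06 to 1.32, limma adjusted p = 0.265), while another of its probe sets lay at 5.99 to 6.04 on all arrays. Tcf7l2, the main TCF factor of the intestine, read 9.51, 9.48 and 10.03 in controls and 10.71, 10.08 and 10.15 in deficient arrays (log2 change 0.64, 95% interval 0.06 to 1.23, limma adjusted p = 0.265). Its 2 other probe sets above the filter gave 0.25 and 0.29 with overlapping groups. Lef1, a TCF family member of lymphocytes and some progenitors, read between 2.81 and 2.96 and was not tested.

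**Figure D2:**
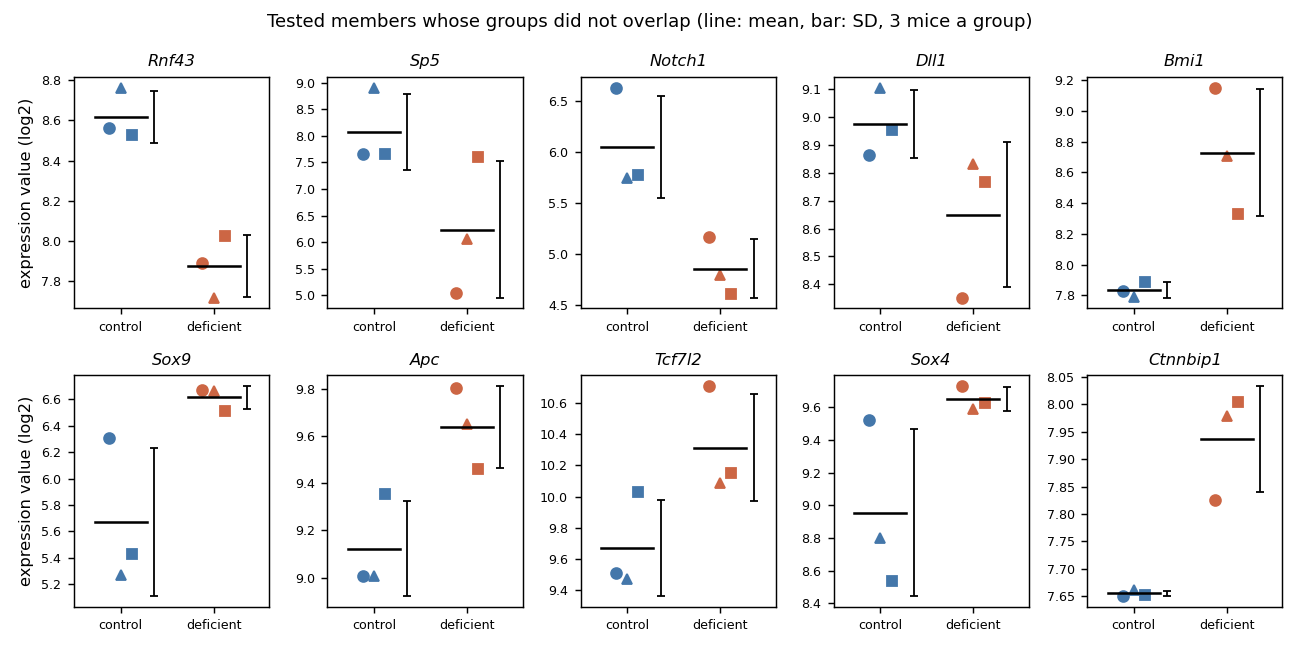
Expression values (log2, vertical axis, a separate range for each gene) of the 10 tested genes whose groups did not overlap, with 1 point per mouse (circle, triangle and square: replicates 1, 2 and 3), the group mean as a line and the SD over 3 mice as a bar. Rnf43, Sp5, Notch1 and Dll1 lie lower in the deficient mice and the other 6 lie higher, and the gap between the groups is narrow for Sp5, Dll1, Apc, Tcf7l2 and Sox4.

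The sequence upstream of the start is shown for Sp5 and Rnf43, the Wnt targets whose deficient arrays lay below all controls, and for Notch1 and Bmi1, 2 further genes with small p. RefSeq windows (GRCm38.p6) were held for 28 of the 43 genes, and the 250 bases before the start are printed 5′ to 3′ on the strand of the gene. They lie at chr2:70474673-70474922 (plus strand) for Sp5, at chr11:87662837-87663086 and chr11:87699647-87699896 (plus strand) for 2 annotated starts of Rnf43, at chr2:26503823-26504072 (minus strand) for Notch1 and at chr2:18676768-18677017 (plus strand) for Bmi1. Capitals mark matches to the core motif of TCF and LEF factors, searched on both strands as CTTTG followed by 2 letters that are each A or T.
Sp5: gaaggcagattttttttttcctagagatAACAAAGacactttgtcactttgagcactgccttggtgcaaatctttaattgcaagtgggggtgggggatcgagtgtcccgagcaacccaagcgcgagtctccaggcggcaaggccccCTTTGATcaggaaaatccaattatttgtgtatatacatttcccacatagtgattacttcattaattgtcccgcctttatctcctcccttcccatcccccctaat
Rnf43, first start: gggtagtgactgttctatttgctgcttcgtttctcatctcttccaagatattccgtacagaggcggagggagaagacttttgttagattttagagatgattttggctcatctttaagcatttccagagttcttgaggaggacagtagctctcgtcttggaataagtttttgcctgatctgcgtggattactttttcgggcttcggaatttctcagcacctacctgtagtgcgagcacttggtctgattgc
Rnf43, second start: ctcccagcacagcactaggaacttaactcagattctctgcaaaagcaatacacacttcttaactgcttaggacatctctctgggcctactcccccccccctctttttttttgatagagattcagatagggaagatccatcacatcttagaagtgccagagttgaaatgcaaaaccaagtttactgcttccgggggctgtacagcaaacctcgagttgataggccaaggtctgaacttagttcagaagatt
Notch1: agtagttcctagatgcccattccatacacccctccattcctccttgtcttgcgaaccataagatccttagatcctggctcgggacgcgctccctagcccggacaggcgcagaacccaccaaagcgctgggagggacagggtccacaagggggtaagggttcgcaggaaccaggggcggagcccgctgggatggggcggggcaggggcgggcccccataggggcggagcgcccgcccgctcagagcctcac
Bmi1: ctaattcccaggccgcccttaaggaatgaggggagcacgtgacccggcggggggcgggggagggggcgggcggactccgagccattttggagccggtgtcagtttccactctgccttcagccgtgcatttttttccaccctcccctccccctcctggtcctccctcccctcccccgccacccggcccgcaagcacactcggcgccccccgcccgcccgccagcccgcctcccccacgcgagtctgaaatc
The Sp5 window held 2 matches, which begin 222 and 104 bases before the start, and the other 4 windows held 0. Of all 32851 RefSeq windows of this length, 14.8% held at least 1 match, and of the 41 windows of the genes studied here 5 did (12.2%): those of Sp5 and Fzd7, and 1 start each of Tnfrsf19, Lef1 and Tcf7l2. The motif of the Notch effector Rbpj, searched as GTGGGAA on both strands, occurred in 5.42% of all windows and in those of Sp5 and Cdca7. A match is a run of letters and not a shown binding site.

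For the probe sets used, each tested growth and adhesion target had groups that overlapped. Myc, the growth regulator, read 6.91, 6.23 and 6.55 in controls and 6.84, 6.87 and 7.28 in deficient arrays, with control replicate 1 among the deficient values (log2 change 0.43, 95% interval -0.11 to 0.98, limma adjusted p = 0.382; 0.27 without control replicate 2). Ccnd1, cyclin D1, read 9.31, 7.41 and 8.85 in controls and 9.18, 9.35 and 8.88 in deficient arrays. Control replicate 2 alone was low, and the log2 change of 0.61 (95% interval -0.49 to 1.72) became 0.06 without it. Of its 2 other probe sets, one gave 0.53 with overlapping groups (0.029 without control replicate 2) and the other 0.73 with deficient arrays above all controls (0.35 without control replicate 2). Ccnd2, cyclin D2, had a change of -0.29 (95% interval -0.72 to 0.15), but its 7 probe sets ran from -0.29 to 0.39.

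Cd44, a hyaluronan receptor of crypt cells, read 8.96, 8.28 and 8.36 in controls and 9.20, 8.74 and 8.21 in deficient arrays, so that the deficient arrays held both the highest and the lowest value (log2 change 0.18, 95% interval -0.55 to 0.91, limma adjusted p = 0.782). Efnb1, an ephrin ligand that helps position cells along the crypt, had a change of 0.01 (95% interval -0.46 to 0.49). Ephb3, a receptor for such ligands, lay at 2.88 to 3.31 on 5 arrays and at 5.57 in deficient replicate 1, and was not tested.

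The 2 tested reserve stem cell genes pointed in different directions. Bmi1, a subunit of Polycomb repressive complex 1 used to mark quiescent crypt cells, read 7.83, 7.79 and 7.89 in controls and 9.15, 8.71 and 8.33 in deficient arrays. The controls were nearly equal and every deficient array stood above them. Bmi1 had a log2 change of 0.89 ± 0.23 (SE; 95% interval 0.35 to 1.44, limma adjusted p = 0.141), and 0.87 without control replicate 2. A second Bmi1 probe set gave 0.52 with overlapping groups. Hopx, an atypical homeodomain protein, read 10.13, 10.85 and 10.03 in controls and 9.10, 9.41 and 10.13 in deficient arrays, where replicate 3 lay among the controls (log2 change -0.79, 95% interval -1.58 to 0.00, limma adjusted p = 0.295). Its other probe set also gave -0.79, and both gave -0.54 without control replicate 2. Tert, the telomerase catalytic subunit, read between 3.53 and 3.86 in deficient arrays, below each control, and no array exceeded 4.85, so it was not tested.

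In the Notch pathway, the receptor Notch1 read 6.63, 5.75 and 5.77 in controls and 5.17, 4.79 and 4.60 in deficient arrays. All deficient arrays lay below all controls, and 2 of them lay under the filter level of 5. Notch1 had a log2 change of -1.19 ± 0.29 (SE; 95% interval -1.88 to -0.51, limma adjusted p = 0.123), and -1.35 without control replicate 2. T cells also express Notch1. The T cell list was lower on the same arrays, with a median log2 change of -3.17 over 13 tested markers, as was the myeloid list described above, and the part of either in the Notch1 and Dll1 values was not tested. Dll1, a ligand made by secretory progenitors, read 8.86, 9.11 and 8.95 in controls and 8.35, 8.83 and 8.77 in deficient arrays (log2 change -0.33, 95% interval -0.77 to 0.12, and -0.18 without deficient replicate 1). The groups did not overlap, but control replicate 1 and deficient replicate 2 were nearly level. Hes1, a repressor switched on by Notch, read 8.27, 7.65 and 7.77 in controls and 9.23, 8.49 and 7.90 in deficient arrays, with control replicate 1 above deficient replicate 3 (log2 change 0.64, 95% interval -0.20 to 1.48, limma adjusted p = 0.393). Leaving out deficient replicate 1 took the Hes1 value to 0.30, and leaving out deficient replicate 3 took it to 0.96. Dll4, a further ligand, read between 2.97 and 3.31 and was not tested.

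**Figure D3:**
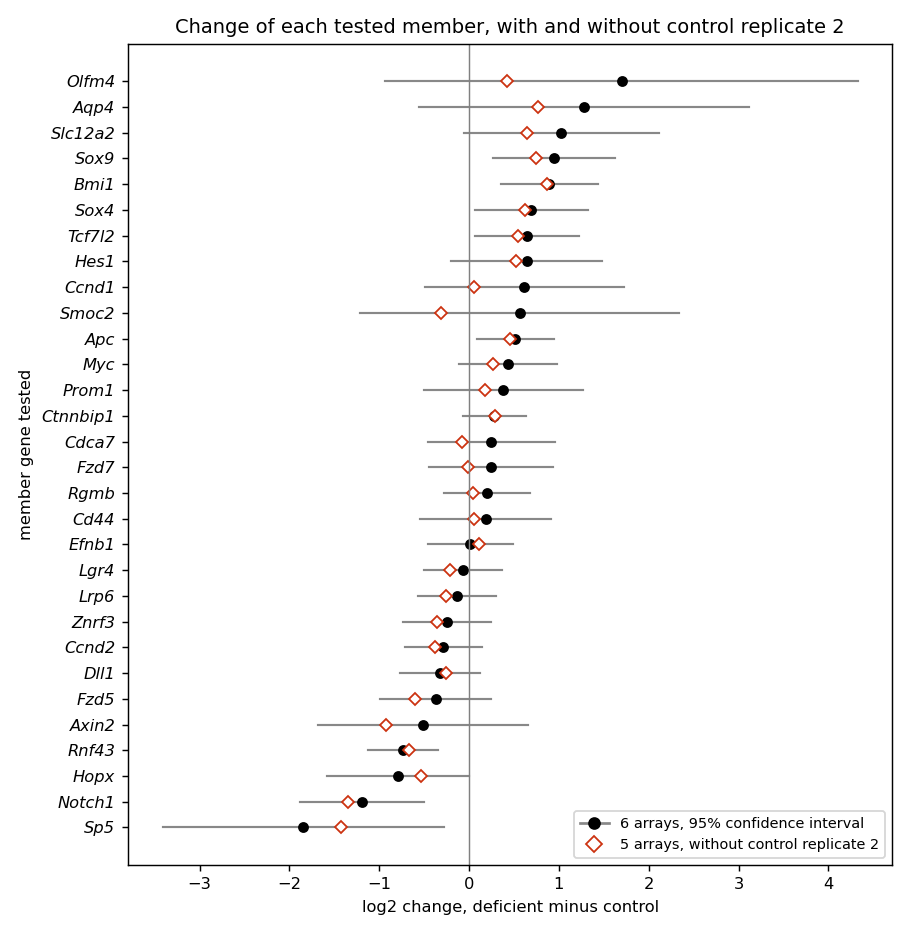
Log2 change, deficient minus control (horizontal axis), of the 30 tested genes on all 6 arrays (black point, with its 95% confidence interval as a bar) and without control replicate 2 (open diamond). For 24 of the 30 the diamond lies to the left of the point, most clearly for Olfm4, Smoc2 and Ccnd1, while Bmi1, Ctnnbip1 and Rnf43 hardly move.

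Control replicate 2 set many of these values. It was the lowest of the 6 arrays for 16 of 30 tested genes (53.3%), as for 25.7% of all tested genes, and it lay below both other controls for 23 of 30 (76.7%), as for 44.9% of all. The gap to the mean of the other controls was -3.83 for Olfm4, -2.62 for Smoc2, -1.67 for Ccnd1, -1.54 for Aqp4, -1.25 for Axin2 and -1.16 for Slc12a2. It ran the other way for Sp5 (1.24) and Hopx (0.77). Without this array the change moved by over 1.5 times for 16 of 30 genes and changed sign for 3 (Smoc2, Cdca7 and Fzd7), and the genes with higher means in the deficient arrays went from 19 of 30 (45.4% of all genes) to 16 of 30 (42.6% of all genes).

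Other lists moved with the same array. The mean level of the 7 tested stem cell markers, relative to the control mean, was 0.76, -1.07 and 0.31 in controls and 0.95, 0.72 and 0.65 in deficient arrays. Proliferation genes showed a like order, at 0.87, -0.78 and -0.09 in controls and 0.71, 1.13 and 0.63 in deficient arrays. Of these, 21 of 21 tested were higher by mean, as were 45.4% of all tested genes, and 0 passed the threshold. At an unadjusted p under 0.05 (limma) 5 were higher, beside 5.6% of all genes. The median log2 change of the 21 was 0.90, and 0.46 without control replicate 2. Paneth cell markers stood at -0.58 in that array and ileum markers at -1.02, while proximal small intestine markers stood at 0.79. Enterocyte markers stood at 0.24 there and at -0.83 in deficient replicate 1. The share of these differences in the stem cell marker values was not tested.

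**Figure D4:**
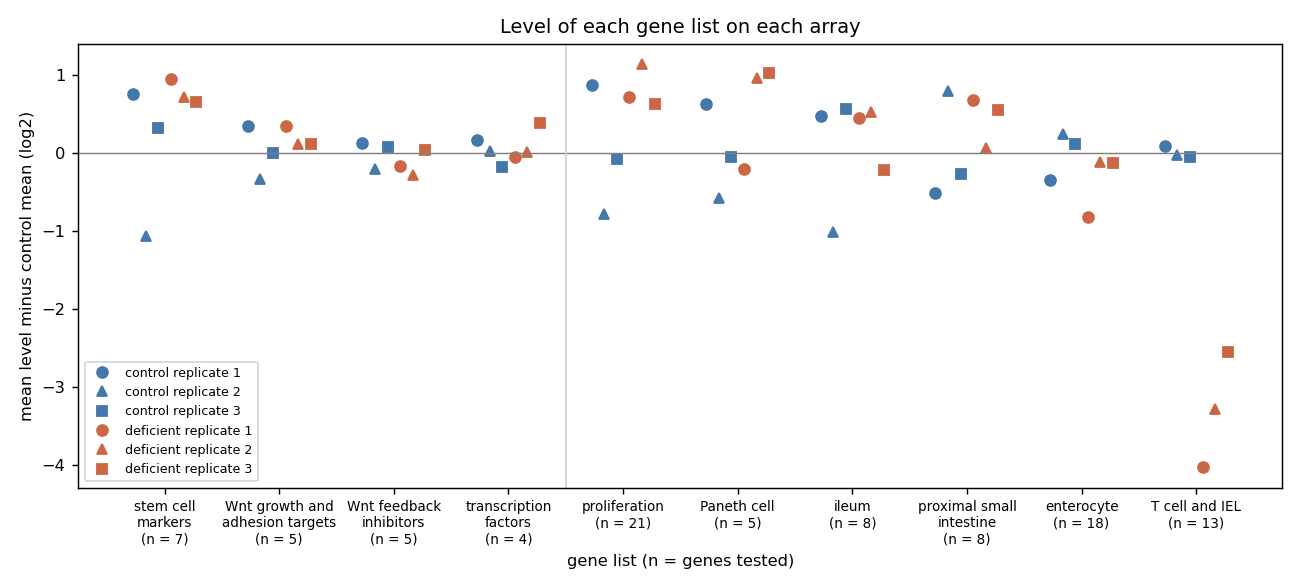
Mean level of each gene list on each array, minus the mean of the controls (log2, vertical axis), with 1 point per mouse (blue: control, red: deficient; circle, triangle and square: replicates 1, 2 and 3; n: tested genes). Control replicate 2 is the lowest array for the stem cell, growth target, proliferation, Paneth and ileum lists, and of the lists shown the T cell list alone separates the groups widely.

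Other parts of the Wnt and Notch pathways did not pass either. Of 24 genes for Wnt ligands, their secretion and R-spondins, 1 was tested: Wls, which carries Wnt proteins to the surface, at -0.30, or -0.66 without control replicate 2. Of 22 further receptors and extracellular antagonists on the array, 2 were tested, Fzd1 at -0.46 (-0.71 without control replicate 2) and Ryk at -0.12. Of 30 genes that act inside the cell, 20 were tested, 15 with lower means, and 0 passed. An unadjusted p under 0.05 (limma) was reached by 0, beside 16.9% of all genes. The median of the 20 was -0.12, with the kinase Nlk at -0.35 and the beta-catenin cofactor Bcl9l at -0.83 (-0.46 without control replicate 2).

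Of 16 further Notch pathway genes tested, 0 passed with limma. The median of the 16 was -0.24, or -0.12 without control replicate 2. At an unadjusted p under 0.05 (limma) 3 were lower, beside 11.3% of all genes. Dtx1, a Deltex protein and Notch target in lymphocytes, read 7.01, 7.19 and 6.84 in controls and 2.70, 3.92 and 5.23 in deficient arrays (log2 change -3.06, limma adjusted p = 0.0528). For Dtx1, deficient replicates 1 and 2 lay under the filter level of 5. The part of T cells, or of myeloid cells, in the Dtx1 value was not tested. Rbpj, the DNA-binding partner of Notch, read 8.42, 7.91 and 8.11 in controls and 7.12, 7.58 and 7.43 in deficient arrays (log2 change -0.77, limma adjusted p = 0.156). For both genes the deficient arrays lay below all controls, as for Notch1 and for 16.7% of all tested genes.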

How the data were processed

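Total RNA of intestinal epithelial cells from 6 mice was measured on Affymetrix arrays. The authors deposited 1 value per probe set and array, taken as log2 from the range of 0.42 to 16.35. Partek 6.5 and GCRMA appear in the submitters' processing notes, with no role stated, and no genome build is named there. Under GCRMA, probe sets without signal collect at the low end of the scale, and no detection calls were used.

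Of 45101 probe sets, 64 control probe sets were left out and 34945 had 1 gene symbol in the platform annotation. For each gene the probe set of highest mean (6 arrays) was kept, and genes above 5 on at least 3 arrays were tested with limma 3.58.1 in R 4.3.3 (lmFit, eBayes, no covariate), with Benjamini-Hochberg adjustment over all 8893 genes at 0.05. The code was tested on simulated data. Fits that left out 1 array kept the same 8893 genes. The labels call the samples biological replicates. Precision is limited by having 3 arrays a group.

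The genes and all lists were chosen with earlier results of these data known. Every member is named, with array values for those past the threshold, those with separate groups and a fixed set. From the other Wnt, Notch, BMP and stem cell lists up to 4 called genes, or up to 2 with the smallest p, are given. Members beyond that rule were added after their values were seen. The proliferation list and the marker lists of cell types and gut segments are given mainly by counts and levels, and their called genes are mostly not named. Lists whose results bear on no member are not reported here.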

Additional observations from a re-analysis of the deposited data

How the results depend on the processing

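Other variance moderation, no filter, quantile normalization, the mean of all probe sets, array weights and the replicate block each left 0 tested members past the threshold, and leaving out 1 array gave 0 to 1 (Sox9, without control replicate 1). The members tested were 41 with no filter, 24 with the mean of all probe sets and 30 in each other setting. Over all alternatives the members' median, taken over the members tested in each, ran from 0.05 to 0.38. The count over all genes was 85 with no filter (18193 genes tested), 117 with the mean of all probe sets (7470 tested), 293 with array weights and 93 to 239 when 1 array was left out. With the replicate block 141 genes were called. Same-numbered arrays did not deviate together (correlations 0.05, -0.29 and 0.00 for numbers 1, 2 and 3), so the numbers were not taken to pair the mice. Signs turned for Ctnnbip1 (-0.14, mean of all probe sets) and Fzd7 (-0.069, array weights). When 1 array was left out, signs turned within the ranges -0.31 to 1.33 for Smoc2, -0.077 to 0.49 for Cdca7, -0.018 to 0.47 for Fzd7, -0.21 to 0.035 for Lgr4, -0.11 to 0.15 for Efnb1, -0.027 to 0.60 for Prom1 and -0.060 to 0.44 for Cd44. Why these signs turned was not tested.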

Other observations

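Of 11 tested genes of BMP signalling, which limits stem cell renewal towards the villus, 0 passed with limma. At an unadjusted p under 0.05 (limma) 2 were lower, beside 11.3% of all genes. Means were higher in the deficient arrays for 2 and lower for 9, where 45.4% of all tested genes had higher means. The median log2 change was -0.31, and -0.16 without control replicate 2. Id2, an inhibitor of basic helix-loop-helix factors, read 12.28, 12.55 and 12.26 in controls and 10.64, 10.54 and 11.60 in deficient arrays (log2 change -1.44, limma adjusted p = 0.0781). Its relative Id3 read 11.87, 11.48 and 11.69 in controls and 10.77, 10.72 and 11.15 in deficient arrays (log2 change -0.80, limma adjusted p = 0.122). Both are also expressed in lymphocytes. T cell markers (11 of 13 passed, lower) and myeloid markers (4 of 8 passed, lower) were low on the same arrays, and their part in these values was not tested.

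Among 14 tested genes that have been linked to intestinal stem cells beyond the main set, 8 had higher and 6 lower means. The median of the 14 was 0.17 (-0.0050 without control replicate 2), and 0 passed with limma. An unadjusted p under 0.05 (limma) was reached by 4, beside 16.9% of all genes. Alcam, the adhesion molecule CD166, read 8.24, 7.67 and 8.13 in controls and 9.09, 9.05 and 8.71 in deficient arrays (log2 change 0.93, limma adjusted p = 0.1003). Fstl1, a secreted glycoprotein of stromal cells as well, read 5.50, 5.40 and 5.23 in controls and 3.83, 4.10 and 4.95 in deficient arrays (log2 change -1.08, limma adjusted p = 0.163). Every deficient value of Fstl1 lay under the filter level of 5, so it was tested through its control arrays alone. The part of stromal cells in the Fstl1 value was not tested. Of 5 tested stromal, muscle and endothelial markers, 2 had higher and 3 lower means, with a median of -1.07, and 0 passed with limma. At an unadjusted p under 0.05 (limma) 3 were lower, beside 11.3% of all genes. The mean level of the 5 was 8.06 to 9.09 in controls and 7.23 to 8.01 in deficient arrays.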
